A study of Mus musculus with 14 samples.

Results

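The 10 genes described here restrain growth or prepare cells for a shortage of nutrients: Ddit4, Sesn1, Sesn2, Sesn3, Trib3, Asns, Foxo3, Sqstm1, Ulk1 and Deptor. They were chosen by symbol from the 23441 genes of the deposited count matrix, each symbol matched 1 gene, and all 10 had enough counts to be tested. Their counts were followed over 14 samples of mouse bone marrow in 4 groups of genotype and diet.

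Marrow plugs were taken from distal tibiae, a part of the skeleton rich in constitutive marrow fat. The mice were males aged 24 weeks on a mixed C57BL6/SJL background, and the plugs of a pair of mice were pooled for each sample. The 4 groups were BMAd-Pnpla2+/+ with ad libitum feeding (AL, 4 samples) or caloric restriction (CR, 4 samples), and BMAd-Pnpla2-/- with the same diets (3 samples each). CR was a 30% caloric restriction for 6 weeks, given as a daily meal shortly before the dark phase. The CR diet was a different product from the control diet that the mice were fed before it. The time between the last meal and collection is not given in the sources used here. All mice, controls included, carried Osterix-FLPo, a recombinase expressed in the osteoblast lineage, and an Adipoq allele with a Cre cassette (FAC) that FLPo switches on, and this allele itself lowers the adiponectin protein. The knockouts also carried floxed Pnpla2, so that adipose triglyceride lipase (ATGL), which performs the first step of lipolysis, was to be deleted in bone marrow adipocytes (BMAds) alone. Other marrow cells were meant to keep Pnpla2, but in reporter mice this Cre also marked a small subset of stromal or dendritic cells. Recombination by this Cre was incomplete in young mice.

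Cells lower the activity of mTORC1, the kinase complex that drives protein and lipid synthesis, when amino acids, energy or insulin are scarce. Ddit4 (REDD1) and Deptor act as brakes on mTOR signaling, and the sestrins (Sesn1, Sesn2 and Sesn3) restrain mTORC1 when amino acids run low. A second arm, the integrated stress response, uses the transcription factor ATF4 to induce genes of amino acid supply such as Asns, the asparagine synthetase, and Trib3, a pseudokinase that binds Akt. When Akt is inactive, Foxo3 enters the nucleus and turns on genes of atrophy and autophagy. Ulk1 is the kinase that starts autophagy, and Sqstm1 (p62) hands ubiquitinated cargo to the growing autophagosome.

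The members are spread over 8 chromosomes of the mouse genome (build mm10, GENCODE M21). Ddit4 lies on the minus strand of chromosome 10, from 59949669 to 59951834, in 3 merged exons of 1755 bases, and Deptor on the plus strand of chromosome 15, from 55112317 to 55259271. Trib3 occupies 152337422 to 152344032 of chromosome 2 and Asns 7675169 to 7693254 of chromosome 6, both on the minus strand. Sesn1 lies at 41809935 to 41908424 of chromosome 10 on the plus strand, Sesn2 at 132492032 to 132510501 of chromosome 4 on the minus strand and Sesn3 at 14275067 to 14333101 of chromosome 9 on the plus strand. Foxo3 (chromosome 10, 42181841 to 42276755), Sqstm1 (chromosome 11, 50199366 to 50210827) and Ulk1 (chromosome 5, 110784488 to 110810097) are all on the minus strand.

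The promoters of members that moved with diet, or that are textbook targets of ATF4, were read first, because the stress pathways above act through short DNA motifs. RefSeq (GRCm38.p6) promoters of 300 bases, 250 before and 50 after the transcription start, were found for 9 of the 10 members, with 2 for Sesn1, and none for Deptor. The 250 bases before the start of Ddit4, the gene with the largest change in the set, are shown with a stretch of the Asns and Sesn2 promoters and of the first transcribed bases of Trib3 and Sesn1. Capitals mark a motif match.
Ddit4, chr10:59951771-59952020, minus strand: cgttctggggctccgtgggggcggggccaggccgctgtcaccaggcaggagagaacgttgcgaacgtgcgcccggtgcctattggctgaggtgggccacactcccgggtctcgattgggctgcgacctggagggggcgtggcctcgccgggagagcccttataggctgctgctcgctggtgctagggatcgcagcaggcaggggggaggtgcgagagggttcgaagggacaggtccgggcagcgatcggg
Asns, chr6:7693210-7693252, minus strand: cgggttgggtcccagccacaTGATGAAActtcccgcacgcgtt
Trib3, chr2:152344029-152344056, minus strand: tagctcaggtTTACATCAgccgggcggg
Sesn2, chr4:132510464-132510512, minus strand: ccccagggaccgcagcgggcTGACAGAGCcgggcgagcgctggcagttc
Sesn1, chr10:41810586-41810612, plus strand: aaccttctacTGTTTACcagccttttg

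The letters TGATGNAA, the amino acid response element read by ATF4 with C/EBP partners, occurred in 2 of the 10 member promoters. Asns held a match from 23 to 16 bases before its start, and Trib3 held the reverse complement 15 to 22 bases after its start. On both strands, 3.97% of the 32851 promoters in the reference table held these letters. The forkhead letters GTAAACA occurred once, as the reverse complement in 1 Sesn1 promoter, against 3.65% of all promoters. The antioxidant response letters TGACNNNGC occurred before the starts of Sesn2 and Asns, against 12.4% of all promoters, and the CLEAR letters TCACGTGA of TFEB in none, against 0.974%. The Ddit4 promoter held none of the 4 motifs. A match describes the letters of this window, and its absence says only that they are not in it.

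Sequencing gave 25282327 to 27475056 read pairs per sample, of which 18658806 to 21339006 were counted on the matrix genes without regard to strand. Reads on the first strand made up 4.30% to 4.62% in 11 samples, as a stranded library gives, but 50.1% to 50.5% in the 3 BMAd-Pnpla2-/- CR samples, and the deposited matrix holds strand-specific counts for the former and unstranded counts for the latter. Unstranded counts were therefore used for all 14 samples, and a difference in library making cannot be told apart from the group itself in any comparison that uses BMAd-Pnpla2-/- CR. For the members, unstranded counts came to 97% to 101.6% of the strand-specific ones in the 11 samples. The gene Mrnip overlaps Sqstm1 by 580 exon bases on the other strand, and Gm9920 overlaps Deptor by 303, so those 2 counts could be slightly off. Their unstranded counts were 101.4% (Sqstm1) and 97% (Deptor) of the strand-specific ones.

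Levels are given as CPM, the counts per 1000000 of the scaled library, and differences were tested over 17494 genes by the quasi-likelihood method of edgeR. A gene was called when the Benjamini-Hochberg adjusted p over all of them was under 0.05. Each sample was a pool of a pair of mice, and the p-values measure the spread between such pools.

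Pnpla2 itself was measured at 176 to 305 CPM in BMAd-Pnpla2+/+ AL and 509 to 1029 in BMAd-Pnpla2+/+ CR samples. It stood at 133 to 172 CPM in BMAd-Pnpla2-/- AL and 179.6 to 271 in BMAd-Pnpla2-/- CR samples. The knockouts lay below the controls of the same diet without overlap, by 0.57 on the log2 scale under AL (95% interval -1.1 to -0.04, adjusted p = 0.99997) and by 1.91 under CR (-2.46 to -1.35, adjusted p = 0.0387). The study found a shortened Pnpla2 mRNA of the deleted allele in tail vertebrae of knockouts. Counts of the whole gene can include its reads, so these values do not measure how much was deleted.

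Per length of transcript, Sqstm1 was the most abundant member in all 4 groups. Its level averaged 75.5 ± 6.65 CPM per kilobase of exon (SD, n = 14), above 96.6% of tested genes, whose median was 4.13. Foxo3 (30.4 ± 6.56), Ulk1 (22.1 ± 2.25), Asns (18.4 ± 6.07), Sesn1 (17.6 ± 3.38) and Sesn2 (14.1 ± 1.77 CPM per kilobase) followed, and their ranges over samples overlapped from each to the next. Deptor averaged 7.19 ± 3.81, Sesn3 2.63 ± 0.521 and Trib3 1.47 ± 0.448 CPM per kilobase. Ddit4 averaged 33.2 ± 25.4, the widest spread of the set, and changed its place with diet: it was the seventh of the 10 in both AL groups, with means of 14.2 and 10.04 CPM per kilobase, and the second in both CR groups, with means of 62.8 and 42.4. Trib3 rested on 38 to 111 reads per sample, whereas every other member had at least 246.

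**Figure D1:**
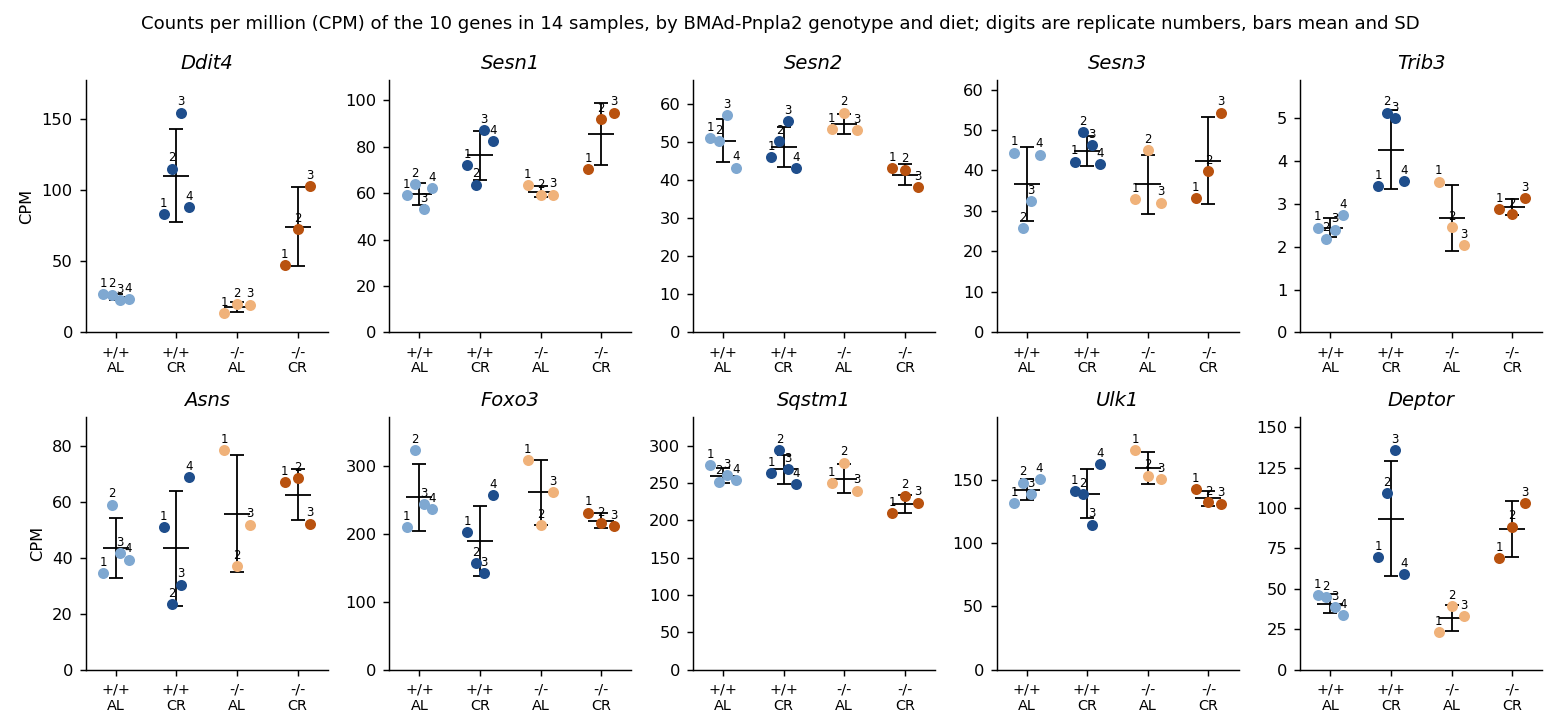
CPM (linear axis) of each member in the 14 samples, grouped by genotype and diet, with a dot per sample, its replicate number, and the group mean with SD in black. Ddit4 and Deptor sit higher in every CR sample than in any AL sample of either genotype, whereas Sqstm1 stays between 209 and 294 CPM throughout.

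In BMAd-Pnpla2+/+ mice, CR raised 4 of the 10 members and lowered none. Ddit4 rose 4.42-fold, Deptor 2.29-fold, Trib3 1.75-fold and Sesn1 1.28-fold. Of all genes tested, 15% were higher and 10.9% lower with CR, and the members' counts are to be read against that background. By the stricter criteria of the study, which also ask for an absolute log2 fold change over 1, Ddit4 and Deptor were called, against 9.19% of all genes. The median log2 fold change of the 10 members was 0.17, against 0.003 for all genes.

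The mTORC1 brake Ddit4 gave the clearest response. The 4 BMAd-Pnpla2+/+ AL samples read 26.9, 26.6, 22.9 and 23.4 CPM, and the 4 CR samples 83.0, 115, 155 and 88.2 CPM. The lowest CR sample was thus far above the highest AL sample. Its log2 fold change of 2.14 (SE 0.24, adjusted p = 0.000521) was larger than that of 98.9% of tested genes.

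Deptor, which binds and inhibits mTOR in both of its complexes, read 46.3, 44.8, 38.5 and 33.9 CPM in BMAd-Pnpla2+/+ AL and 69.7, 109, 136 and 59.2 CPM in BMAd-Pnpla2+/+ CR samples. The groups did not overlap, and CR replicates 2 and 3 were the highest, as they were for Ddit4. The log2 fold change was 1.19 (SE 0.25, adjusted p = 0.00636).

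Of the sestrins, Sesn1 alone was called in BMAd-Pnpla2+/+ mice. It read 59.3, 63.7, 53.1 and 62.1 CPM under AL and 72.2, 63.7, 87.2 and 82.5 CPM under CR, a log2 fold change of 0.36 (SE 0.11, adjusted p = 0.0355). CR replicate 2 lay inside the AL range, so the groups overlapped. Sesn2 differed by -0.05 (95% interval -0.26 to 0.17), and Sesn3 by 0.29 (-0.11 to 0.70) on the log2 scale.

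Among the ATF4 targets, Trib3 read 2.45, 2.19, 2.40 and 2.74 CPM under AL and 3.41, 5.13, 5.01 and 3.53 CPM under CR. All 4 CR samples exceeded all 4 AL samples, and the log2 fold change was 0.80 (SE 0.21, adjusted p = 0.0152). Asns did not follow it: the AL samples read 34.5, 59.1, 41.8 and 39.4 CPM and the CR samples 51.0, 23.4, 30.5 and 68.8 CPM. CR samples 2 and 3, the highest in Trib3, Ddit4 and Deptor, were the lowest in Asns, and the estimate was -0.01 with a 95% interval from -0.68 to 0.66.

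The forkhead factor Foxo3 read 210.2, 324, 245 and 237 CPM under AL and 203, 157, 142 and 258 CPM under CR. Its log2 fold change of -0.42 (95% interval -0.81 to -0.03) did not pass the test (adjusted p = 0.103), and the groups overlapped. Neither autophagy gene passed the test. Sqstm1 read 252 to 274 CPM under AL and 248 to 294 under CR, and Ulk1 132 to 150.2 and 114 to 162 CPM. Their 95% intervals on the log2 scale were -0.12 to 0.22 for Sqstm1 and -0.24 to 0.18 for Ulk1. Ddit4, Deptor and Trib3 were the 3 members whose groups did not overlap, while 22.7% of all genes met that description.

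Leaving out CR replicate 3 ended the calls of Sesn1 (0.29, adjusted p = 0.109) and Trib3 (0.72, adjusted p = 0.0503), and 2 members then remained called. The Sesn1 call was also lost when any of AL replicates 1, 3 and 4, CR replicates 1 and 4 or BMAd-Pnpla2-/- AL replicates 1 and 3 was left out (adjusted p from 0.0561 to 0.137), with the deposited matrix (0.0501), and with the 2 groups fitted alone (0.0607).

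In BMAd-Pnpla2-/- mice, CR raised Ddit4 4.22-fold, Deptor 2.72-fold and Sesn1 1.41-fold, and lowered Sesn2 to 0.756 of its AL level. The other 6 members did not pass the test. The background was 6.01% of genes called higher and 5.57% lower. Ddit4 and Deptor again met the stricter criteria, as did 3.52% of all genes. The median log2 fold change of the members was 0.15, against 0.05 for all genes.

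Ddit4 read 13.6, 19.7 and 19.6 CPM in BMAd-Pnpla2-/- AL and 47.5, 72.9 and 103 CPM in BMAd-Pnpla2-/- CR samples, with no overlap and a log2 fold change of 2.08 (SE 0.28, adjusted p = 0.00475). The CR samples spread widely, and the lowest of them still exceeded every AL sample of both genotypes. Deptor read 23.5, 39.4 and 33.0 CPM under AL and 69.0, 88.5 and 103 CPM under CR (1.44, SE 0.29, adjusted p = 0.0119). The samples of the CR group held the same order in both genes.

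The sestrins parted in the knockouts. Sesn1 read 63.5, 59.2 and 59.3 CPM under AL and 70.2, 91.9 and 94.6 CPM under CR (0.50, SE 0.13, adjusted p = 0.0308). Sesn2 moved the other way, from 53.4, 57.7 and 53.2 CPM to 43.2, 42.8 and 38.2 CPM (-0.40, SE 0.12, adjusted p = 0.0397). Neither gene's groups overlapped. Sesn3 read 32.1 to 45.0 CPM under AL and 33.1 to 54.3 under CR, and its estimate of 0.21 had a 95% interval of -0.26 to 0.68.

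Trib3 read 3.53, 2.45 and 2.04 CPM under AL and 2.88, 2.77 and 3.13 CPM under CR in the knockouts. The CR samples lay inside the AL range, and the estimate was 0.13 (95% interval -0.38 to 0.65). Asns read 78.7, 37.2 and 51.9 CPM under AL and 67.3, 68.5 and 52.3 CPM under CR, likewise overlapping (0.16, -0.61 to 0.94). Foxo3 stood at 213 to 310 CPM under AL and 211 to 232 under CR (-0.25, -0.70 to 0.20).

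Sqstm1 and Ulk1 read a little lower in each CR sample than in each AL sample of the knockouts without passing the test. Sqstm1 read 249.8, 277 and 240 CPM under AL and 209, 233 and 224 CPM under CR (-0.20, SE 0.09, adjusted p = 0.160), and Ulk1 read 173, 153 and 150.3 CPM and then 142, 132 and 131 CPM (-0.23, SE 0.11, adjusted p = 0.193). DESeq2 called Sqstm1 (-0.25, adjusted p = 0.0460). In all, 6 members did not overlap between the 2 diets, where 37.8% of all genes did not.

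These calls were made with 3 samples against 3. The Sesn2 call was lost when any 1 of the 6 knockout samples was left out (adjusted p from 0.0635 to 0.153) and with scaling by total counts (0.0852), and the Sesn1 call was lost without AL replicate 1, 2 or 3 or CR replicate 2 or 3 (0.0667 to 0.129). Without AL replicate 1 or CR replicate 3, Deptor stood at 1.22 and 1.30 (adjusted p = 0.0508 and 0.0516), and Ddit4 was then the 1 member called.

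**Figure D2:**
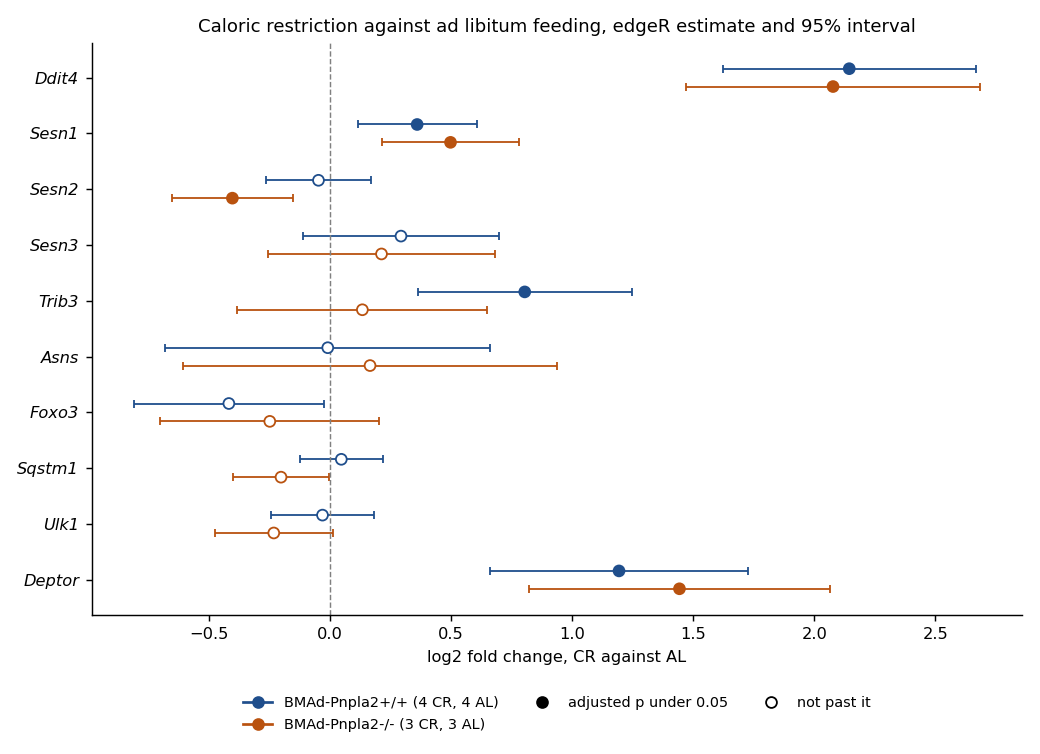
Log2 fold change of each member with CR against AL in BMAd-Pnpla2+/+ (blue) and BMAd-Pnpla2-/- mice (orange), as the edgeR estimate with its 95% interval; filled points have an adjusted p under 0.05. Ddit4 (2.14 and 2.08) and Deptor (1.19 and 1.44) are far right of 0 in both genotypes, and Sesn2 is left of 0 with a filled point in the knockouts.

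Whether the loss of Pnpla2 altered these genes was asked under each diet and as a difference of the CR responses. Under AL, 0 of 10 members were called, as were 0% of all genes by edgeR, and 0 members had an unadjusted p under 0.05, while 694 genes did. DESeq2 called 17 genes, none of them a member. The largest difference among members was in Ddit4, which was lower in each knockout AL sample than in each control AL sample (-0.50, 95% interval -1.06 to 0.06, adjusted p = 0.99997). Ulk1 was higher in each knockout AL sample than in each control AL sample (0.16). The share of all genes without overlap between genotypes is not given here for either diet. In the diet comparisons it was 22.7% in controls and 37.8% in knockouts. Separations of members between genotypes thus have no background of their own and are descriptions only. Asns (0.36, -0.36 to 1.08) and Deptor (-0.35, -0.93 to 0.22) had intervals that allow a 2-fold difference or close to it, whereas those of Sesn1 (-0.24 to 0.29), Sesn2 (-0.11 to 0.35), Sqstm1 (-0.21 to 0.16) and Ulk1 (-0.07 to 0.39) do not. The adipocyte markers described below summed to 301 to 684 CPM in knockout AL and 664 to 1708 CPM in control AL samples. The part of these markers in the differences of the members under AL was not tested.

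Under CR, 0 of 10 members were called, with 0.00572% of all genes higher and 0.0114% lower in the knockouts, 3 genes in all, of which Pnpla2 was 1. At an unadjusted p under 0.05 there were 4052 genes and 4 members, Sqstm1, Trib3, Ddit4 and Sesn2, each lower in the knockouts. The 8 adipocyte markers described below had a median log2 fold change of -1.04 in this comparison, and none was called. Their part in the differences of the members was not tested. The CR samples of Sqstm1 were 263, 294, 268 and 248 CPM in controls against 209, 233 and 224 CPM in knockouts, without overlap (-0.27, SE 0.09, adjusted p = 0.101). DESeq2 called this difference (-0.30, adjusted p = 0.0128), as did edgeR without BMAd-Pnpla2+/+ CR replicate 4 (-0.31, adjusted p = 0.0446). Trib3 was likewise lower in each knockout CR sample (-0.54, SE 0.22, adjusted p = 0.169), and Ddit4 overlapped (-0.57, SE 0.25, adjusted p = 0.200). The separations of Sqstm1 and Trib3 have no share of all genes to be read against.

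The difference between the CR responses of the 2 genotypes passed the test for 0 of 10 members and 0% of all genes with edgeR, with 1 member and 1824 genes at an unadjusted p under 0.05. DESeq2 called 43 genes and no member. Thus the Trib3 rise, called in controls and not in knockouts, was not shown to differ between them (-0.67, 95% interval -1.35 to 0.01, adjusted p = 0.483), nor was the Sesn2 fall in knockouts (-0.36, -0.69 to -0.03, adjusted p = 0.455). For Ddit4 the responses differed by -0.07 with an interval from -0.84 to 0.71, and for Deptor by 0.25 (-0.56 to 1.06), so the Ddit4 fold change in knockouts could lie between 0.558 and 1.63 times that in controls.

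**Figure D3:**
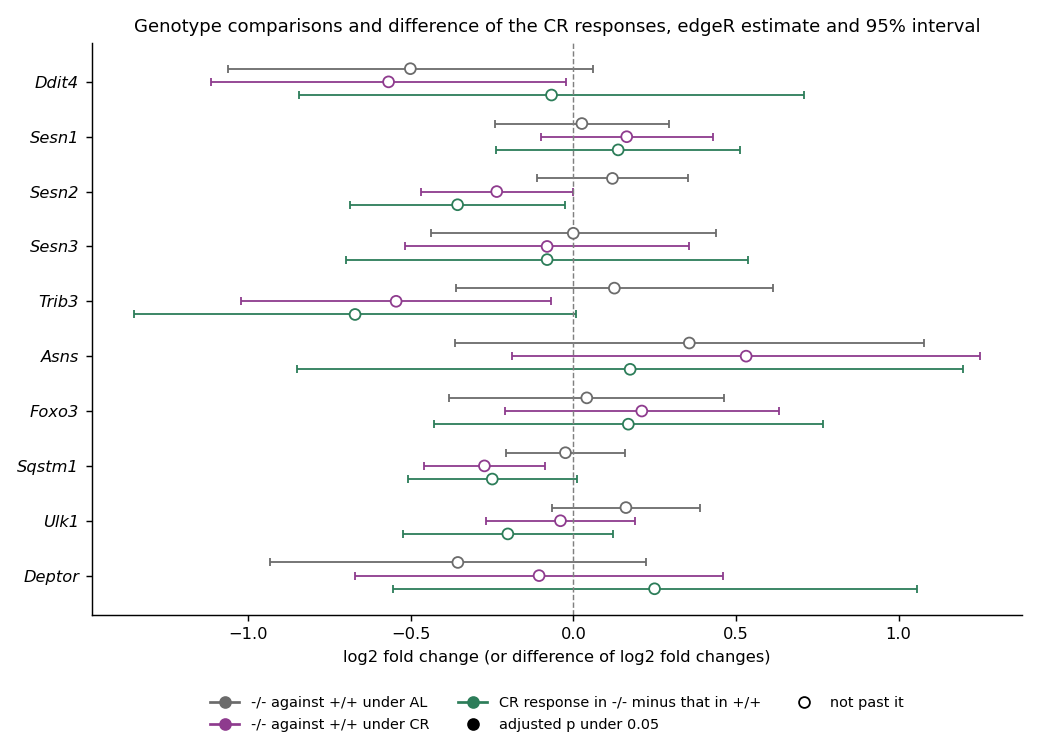
Log2 fold change of each member between BMAd-Pnpla2-/- and BMAd-Pnpla2+/+ mice under AL (grey) and under CR (purple), and the CR response in knockouts minus that in controls (green), with 95% intervals from edgeR. No point is filled, that is, no adjusted p is under 0.05, and the intervals of Asns reach furthest to the right (up to 1.25 under CR).

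The wider pathway, with members on several of the lists, was read from 13 lists holding 238 genes, of which 230 were tested. Against the counts called in each list stand the shares over all genes tested, 15% higher and 10.9% lower with CR in controls, and 6.01% higher and 5.57% lower in knockouts. The list of mTORC1 brakes had 5 of 16 genes higher and 0 lower with CR in controls, and 5 higher and 1 lower in knockouts. Its medians were 0.29 and 0.08, against 0.003 and 0.05 for all genes. Without the 5 members on the list, 2 of 11 genes were higher and 0 lower in each genotype. Besides the members, these were Castor1, the arginine sensor that inhibits GATOR2, and Pik3ip1, an inhibitor of PI3K. Castor1 rose by 1.44 on the log2 scale in controls (SE 0.24) and by 0.96 in knockouts. Pik3ip1 rose by 1.38 and 1.20. In controls the complexes themselves had 0 of 29 genes higher and 5 lower, led by Prr5l (-0.87) and the Ragulator subunit Lamtor4 (-0.42), with Mlst8 (-0.37) and Sec13 (-0.36) the smallest falls. In knockouts 4 were higher and 4 lower, with Fnip1 (0.43) and Rragc (0.38) at one end and Prr5l (-0.59) and Rps6kb2 (-0.58) at the other.

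Of 14 eIF2 kinases and stress factors, 3 were lower and 0 higher in each genotype, where 10.9% of all genes were lower in controls and 5.57% in knockouts. Atf4 mRNA itself fell by 0.47 in controls (SE 0.11) and by 0.44 in knockouts. Gadd45a (-0.87) and the double-stranded RNA kinase Eif2ak2 (-0.51) fell in controls, and Atf3 (-1.27) and Atf5 (-0.53) in knockouts. Of 35 ATF4 targets of amino acid supply, 6 were higher and 7 lower in controls, and 3 higher and 1 lower, Sesn2, in knockouts (medians -0.19 and -0.12). Stc2, a secreted glycoprotein (2.99), and Gpt2, the mitochondrial alanine transaminase (2.14), rose most in controls, and the cystine carrier Slc7a11 (-1.04) and the mitochondrial folate enzyme Mthfd2 (-0.70) fell most. Gpt2 (1.26) and the neutral amino acid carrier Slc1a4 (0.91) rose in knockouts, as did the carrier Slc38a2 (0.39).

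The FoxO factors and targets had 9 of 20 genes higher and 1 lower in controls, and 6 higher and 1 lower in knockouts (medians 0.29 and 0.23). Without the 3 members on the list, 8 of 17 were higher in controls and 5 in knockouts, with 1 lower in each. Klf15, a factor of amino acid breakdown in fasting, rose by 2.30 and 1.82, and the mitophagy receptor Bnip3 by 1.41 and 1.44. Cited2 rose by 0.29 and Ccng2 fell by 0.34 in controls. Sesn1 is on this list too, and in knockouts Bcl6 fell by 0.47. Of 16 p53 targets, a list that also holds Sesn1 and Sesn2, 4 were higher and 2 lower in each genotype: Cdkn1a, the cell cycle inhibitor p21, rose by 1.22 and 0.82, while Trp53 fell by 0.50 and 0.60. Phlda3 (1.07) rose and Btg2 (-0.65) fell in controls, and Trp53inp1 (0.78) rose in knockouts.

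Among 23 genes of initiation and nucleation, 0 were higher and 2 lower in each genotype: Becn1 (-0.42) and Atg101 (-0.36) in controls, and Atg101 (-0.50) and Nrbf2 (-0.44) in knockouts. The 16 conjugation genes had 1 higher, Map1lc3a (0.70), and 2 lower, Atg16l2 (-0.48) and Atg5 (-0.26), in controls, and 1 higher, Atg4c (0.43), and 1 lower, Atg7 (-0.32), in knockouts. The 13 cargo receptors, with Sqstm1 among them, had 2 higher, Bnip3 and Tex264 (0.51), and 1 lower, Retreg1 (-0.31), in controls, and Bnip3 alone higher in knockouts. The lysosome and TFEB family list had 6 of 28 genes higher and 2 lower in controls, among them Ppargc1a (1.1), a coactivator of mitochondrial genes, the protease Ctsl (0.84), Tfec (-0.53) and Hexa (-0.37). In knockouts it had 0 higher and 5 lower (5.57% of all genes were lower), among them Tfeb (-0.71), Ctsd (-0.51), Cln3 (-0.43) and Tfe3 (-0.43). The 12 NRF2 targets had 2 lower and 0 higher in each genotype, Slc7a11 and G6pdx (-0.34) in controls and Osgin1 (-0.68) and G6pdx (-0.58) in knockouts. Of 9 AMPK subunits and upstream kinases, Prkaa2 (0.83) and Prkag2 (0.44) rose in controls and none was called in knockouts, where edgeR gave 2 at an unadjusted p under 0.05.

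Ddit4 and Sesn1 are also on the list of glucocorticoid targets. In controls 9 of 11 were higher and 0 lower, with a median of 1.38. In knockouts 10 of 11 were higher and 0 lower, with a median of 1.38. Without the 2 members, 7 of 9 were higher in controls and 8 of 9 in knockouts. Zbtb16 rose by 2.18 in controls (SE 0.27) and by 1.61 in knockouts, and Sgk1, a kinase of ion transport, by 0.87 in controls. Sesn1 and the metallothionein Mt1 were the smallest rises called in knockouts, by 0.50 and 0.62.

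**Figure D4:**
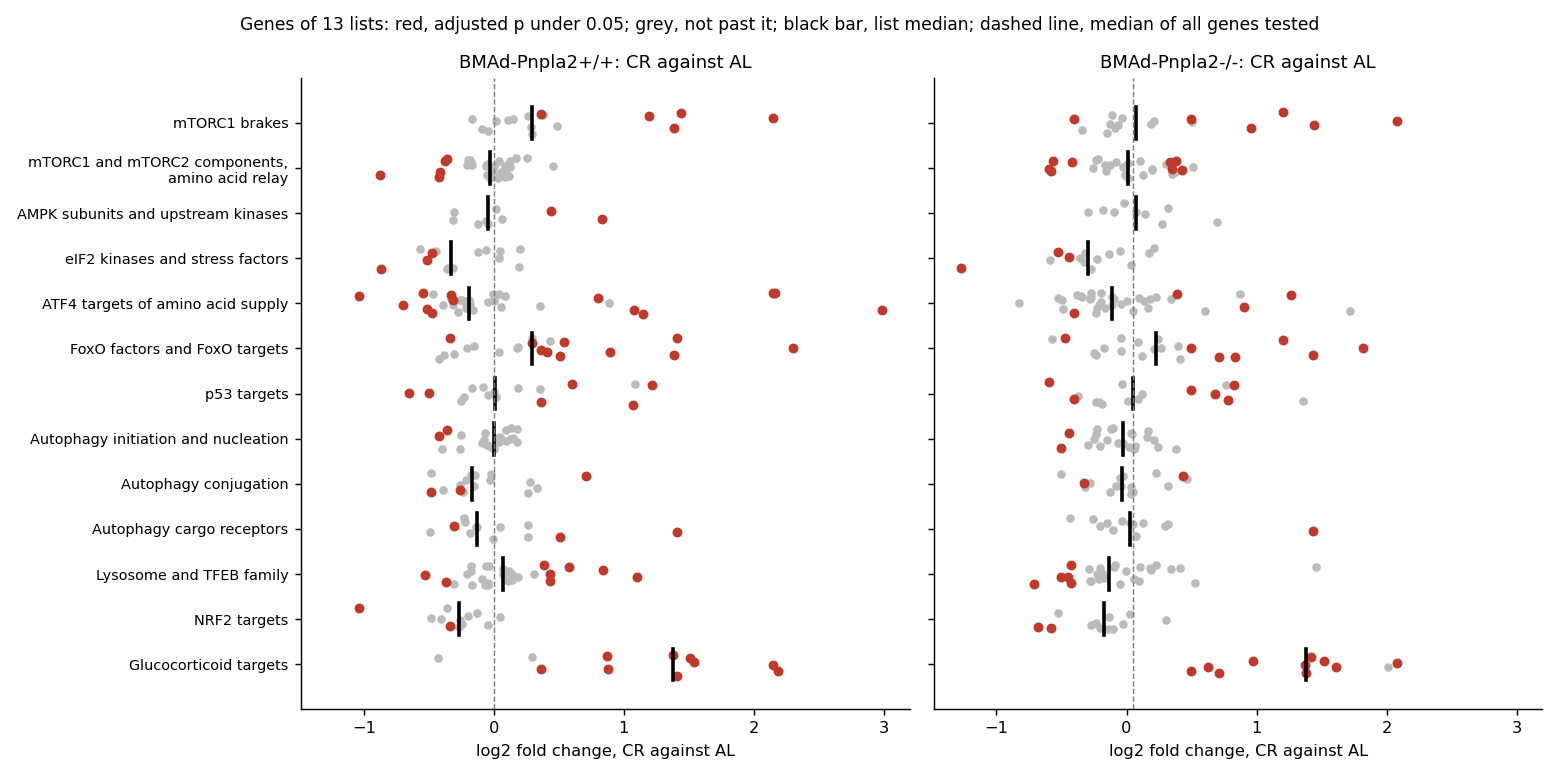
Log2 fold change with CR against AL of each gene of the 13 lists in BMAd-Pnpla2+/+ (left) and BMAd-Pnpla2-/- mice (right), red where the adjusted p was under 0.05, with the list median as a black bar and the median of all genes as a dashed line. The medians of the glucocorticoid targets, 1.38 in both panels, stand far from those of the other 12 lists, which lie between -0.33 and 0.29.

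The marrow held RNA of a fat component, and the RNA levels of markers of several cell types differed between diets. Fewer cells of a type and less RNA per cell cannot be told apart in these bulk samples. All 8 adipocyte markers, Adipoq among them, were detected in every group and were called higher with CR in both genotypes, with medians of 2.07 and 2.22 on the log2 scale, about the size of the Ddit4 change. Their summed level was 664 to 1708 CPM in BMAd-Pnpla2+/+ AL, 1895 to 4687 in BMAd-Pnpla2+/+ CR, 301 to 684 in BMAd-Pnpla2-/- AL and 1208 to 1964 in BMAd-Pnpla2-/- CR samples. For comparison, the 7 erythroid markers that could be measured summed to 9945 to 48348 CPM and the 8 neutrophil markers to 11165 to 27886 over all samples, and each of these sums exceeded that of the adipocyte markers in every sample.

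Within BMAd-Pnpla2+/+ CR, replicates 2 and 3 had the most adipocyte marker RNA (4687 and 4503 CPM, against 3588 in replicate 1 and 1895 in replicate 4), and they were also the highest in Ddit4, Deptor and Trib3 and the lowest in Asns and Foxo3. The same replicates also had the highest endothelial sums (1428 and 1226 CPM, against 898 and 698 in replicates 1 and 4). Their stromal and osteoblast sums were the highest too (11405 and 8812 CPM, against 8714.5 and 5430). Their erythroid sums (9945 and 10248 CPM, against 30793 and 48348) and their neutrophil and megakaryocyte sums were the lowest of the group. The part of adipocyte or other marker RNA in these values was not tested.

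**Figure D5:**
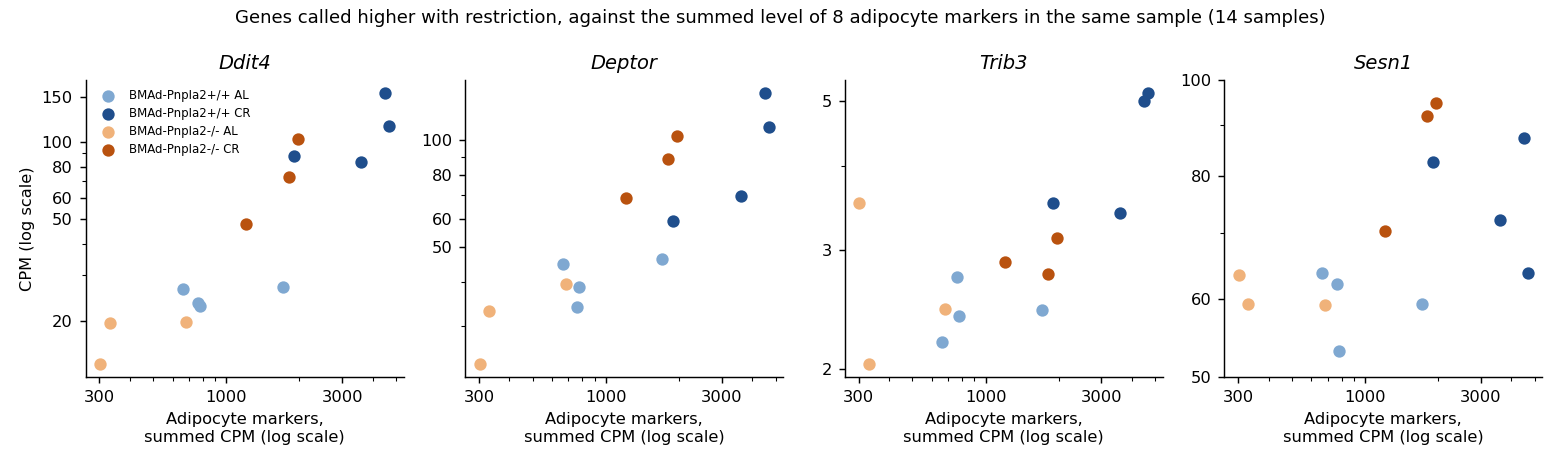
CPM of Ddit4, Deptor, Trib3 and Sesn1, the members called higher with CR in controls, against the summed CPM of 8 adipocyte markers in the same sample, both on log axes, with a point for each of the 14 samples coloured by group. Within each genotype the CR samples lie to the right of the AL samples, at 1895 to 4687 against 664 to 1708 CPM of markers in controls and 1208 to 1964 against 301 to 684 in knockouts, and above them for Ddit4.

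Markers of other cell types were read the same way, against 15% of all genes higher and 10.9% lower in controls and 6.01% and 5.57% in knockouts. In controls with CR, 6 of 8 endothelial and 5 of 8 stromal and osteoblast markers were higher and none lower, while 4 of 8 neutrophil, 6 of 8 pro-B and pre-B cell and 4 of 6 megakaryocyte markers were lower and none higher. T and NK cell markers had 4 of 8 higher and 1 lower, and monocyte and macrophage markers 1 of 8 higher and 2 lower. In knockouts 6 of 8 pro-B and pre-B cell markers were lower and none higher, T and NK cell markers had 2 of 8 higher and 1 lower, and 1 of 8 stromal and osteoblast markers was higher. None of the 8 mature B and plasma cell markers was called in either genotype. The erythroid sum ranged from 9945 to 48348 CPM within BMAd-Pnpla2+/+ CR alone, and no erythroid marker passed the test.

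A list of 6 skeletal muscle markers set samples of BMAd-Pnpla2-/- CR apart. Their summed level was 10.9, 38.7 and 108 CPM in its replicates 1, 2 and 3, against 7.76 to 30.3 CPM in the other 11 samples. Acta1, the actin of skeletal muscle, reached 41.7 CPM in that group and at most 5.03 CPM in the others. None of the 5 muscle markers tested was called in either diet comparison or between genotypes under CR (medians -0.54 and 1.95 with CR in controls and knockouts, and 1.64 between genotypes). Replicate 3 of that group is also the CR sample without which Deptor, Sesn1 and Sesn2 lost their calls in knockouts, while Ddit4 was still called (1.77). Without it, all genes called with CR in knockouts fell from 2025 to 248. The same members lost their calls without BMAd-Pnpla2-/- AL replicate 1, whose muscle sum was 15.2 CPM. No marker of any list was at 0 in every sample of a group. The part of these marker levels in the changes of the members was not tested.

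Genes whose log2 CPM ran most alike with each called member over the 14 samples were named as a description, among 14829 genes with a mean of at least 1 CPM. The points share groups, and markers of several cell types differed between those groups. With Ddit4 they were Map3k6 (Pearson r = 0.99), Als2cl (0.98) and Timp4 (0.98), and with Deptor Lrrc58, Ptprb, a phosphatase of endothelial cells, and Lifr, a cytokine receptor (0.98 each). With Sesn1 they were Taf9b (0.92), Mtch2 (0.91) and Elp2 (0.91). Trib3 ran with Adgrl1, Spry4 and Tom1l2 (0.89 each), and Sesn2 with Flot2 (0.84), Pik3r5 (0.83) and Edem2 (0.80).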

How the data were processed

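RNA of 14 marrow samples was sequenced. Per the labels and the study's methods, the authors used FastQC 0.11.9 to check reads and STAR to align them to mm10, and the deposited values are raw counts, given for each sample unstranded and for either strand, and joined in a matrix of 23441 genes. The unstranded counts were used here. The authors' own tests used DESeq2.

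Counts were scaled by TMM and filtered by filterByExpr on the 4 groups (17494 genes kept), and 5 comparisons were tested two-sided in 1 robust quasi-likelihood model with edgeR 4.0.16 (R 4.3.3), with Benjamini-Hochberg adjustment. SE is the log2 fold change over the square root of F. Log2 CPM used a prior count of 2. DESeq2 1.42.0 was an alternative. The fit was tested on simulated data. Exon lengths and positions came from GENCODE M21.

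The members and lists were chosen with earlier results of these data known, so their counts are descriptions. Genes named from a list were the 2 largest and 2 smallest called changes per diet comparison with a mean of at least 1 CPM. Pik3ip1, and Castor1 in knockouts, fall outside this rule and were named after their values were seen. Of the 238 list genes, 5 (Fgf21, Fnip2, Stk11, Trim63 and Yars) had no matching symbol in the matrix.

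Replicate numbers in the labels name samples. Deviations from group means of same-numbered samples correlated from -0.27 to 0.15 and from -0.17 to 0.24 between diets, from -0.29 to -0.07 between genotypes under AL and from 0.10 to 0.35 under CR. Since 1 of these 4 comparisons had every pair over 0.1, the numbers may pair the CR samples, and the block there changed no member's call. No 2 libraries held identical values (highest correlation 0.986).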

Additional observations from a re-analysis of the deposited data

How the results depend on the processing

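Ddit4 was called higher with CR in both genotypes under every alternative run, at 1.94 to 2.24 (log2) in controls and 1.77 to 2.31 in knockouts with each sample left out in turn. Of 1280 member values recomputed, 1196 held their direction and side of the threshold, 26 lost a call, 4 gained one and 54 changed sign, none of the latter called. The cause of these changes was not tested.

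With 1 of the 14 samples left out, 2 to 4 members were called with CR in controls and 1 to 4 in knockouts. All genes called ranged from 2200 to 5959 in controls (3005 and 2866 without AL replicates 2 and 3, 2650 and 2200 without CR replicates 2 and 3) and from 248 to 2402 in knockouts (443 and 510 without AL replicates 1 and 3, 817 and 248 without CR replicates 2 and 3). Between genotypes under CR, 0 to 1 members and 0 to 2092 genes were called (2092 without BMAd-Pnpla2+/+ CR replicate 4, 256 without CR replicate 3, 240 without AL replicate 2, and 0 without any 1 of the BMAd-Pnpla2-/- CR samples), against 3 with all samples.

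Fitting only the compared groups gave 2689 genes in controls (4543 in the model of 4 groups) and 0 between genotypes under CR, where total counts gave 8, the deposited matrix 2451 and DESeq2 1471 genes with 1 member, Sqstm1. The deposited matrix, which mixes strand-specific and unstranded counts, gave 3898 genes with CR in knockouts (2025 here) and 678 for the difference of responses, where DESeq2 gave 43, and DESeq2 gave 17 between genotypes under AL. In knockouts, total counts split the calls into 1386 higher and 682 lower, against 1051 and 974 with TMM, while relative log expression gave 900 and 1246, a filter of over 1 CPM in 3 samples 945 and 1196, no low-count filter 700 and 1074, the compared groups alone 1124 and 1533 and DESeq2 1336 and 1648. Unstranded counts of 11 samples without BMAd-Pnpla2-/- CR, a setting chosen after seeing the data, called the same number of members in controls (4), with Ddit4 at 2.13, Deptor at 1.18, Trib3 at 0.79 and Sesn1 at 0.35.

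With the replicate block, 3 members were called with CR in controls (4199 genes; Sesn1 lost at adjusted p = 0.0555) and 4 in knockouts (1794 genes), and 0 members between genotypes (0 genes under AL, 2 under CR) or for the difference of responses. Not every sample correlated best with its own number. No other member's call changed with the block.

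Signs changed near 0 for values that did not pass the test. In controls with CR, total counts gave 0.00404 for Sesn2, 0.0307 for Asns and 0.0108 for Ulk1, and upper quartile scaling 0.0107 for Asns. Between genotypes under AL, Sesn3 went from -0.0001 to 0.00567 (strand-specific counts of 11 samples), 0.00565 (unstranded counts of the same), 0.00571 (compared groups only), 0.000452 (all genes), 0.00151 (relative log expression), 0.00613 (upper quartile), 0.00432 (no low-count filter), 0.00389 (DESeq2) and 0.0292 (replicate block). Under CR, Ulk1 was 0.0212 with the block. With each sample left out, the ranges were, in controls with CR, -0.115 to 0.00601 for Sesn2, -0.322 to 0.198 for Asns, -0.00136 to 0.0824 for Sqstm1 and -0.114 to 0.0525 for Ulk1. In knockouts with CR they were -0.00738 to 0.384 for Sesn3, -0.0644 to 0.338 for Trib3 and -0.0616 to 0.447 for Asns. Between genotypes under AL they were -0.0199 to 0.0602 for Sesn1, -0.174 to 0.106 for Sesn3, -0.121 to 0.280 for Trib3, -0.0938 to 0.180 for Foxo3 and -0.0848 to 0.0133 for Sqstm1. Under CR they were -0.299 to 0.0673 for Sesn3, -0.122 to 0.0435 for Ulk1 and -0.271 to 0.131 for Deptor. For the difference of responses they were -0.375 to 0.170 for Ddit4, -0.300 to 0.0914 for Sesn3 and -0.0528 to 0.496 for Asns.

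With 3 or 4 pools a group, the 95% interval of Asns was the widest of the 10 genes in both diet comparisons. It ran from -0.68 to 0.66 in controls, so changes of Asns in either direction within these limits remain possible.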
